A study of Mus musculus with 140 samples.

Results

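The 10 Polycomb group genes Ezh2, Ezh1, Suz12, Eed, Jarid2, Mtf2, Rnf2, Ring1, Cbx2 and Cbx7 were examined for silencers, DNA elements that lower transcription, found by a reporter screen in mouse embryonic stem cells (mESCs) and mouse embryonic fibroblasts (MEFs). Each gene was given a territory, its annotated body plus 10 kb on each side (mm10, GENCODE M21), and every listed silencer interval that overlapped the territory by at least 1 bp was assigned to it. The 10 territories held 66 of the 115165 intervals in the mESC list and 54 of the 89596 intervals in the MEF list. No interval lay in territories of more than 1 of these genes. The rule uses gene names and positions, not silencer counts, but the genes were chosen with earlier results of these data known.

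The screen used Ss-STARR-seq, in which sheared mouse genomic DNA is cloned into a reporter plasmid, the library is introduced into cells and the reporter RNA is sequenced beside the plasmid input. The labels describe 56 reporter RNA libraries from mESCs grown in N2B27-2i/LIF medium, 64 from MEFs grown in DMEM with serum, and 20 libraries of the input plasmid, which are named with both lists. No strain, genotype or passage is given, and the number of cultures behind the libraries is not stated. The authors deposited 1 list per cell type, with a position and a linear fold for each interval, so no value below has a replicate error, and the read depth behind an interval is unknown. A fragment in this assay is read away from its own chromosome position, so an interval at a gene is a sequence with reporter activity, and no expression of the gene was measured here.

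Polycomb proteins keep developmental genes silent by modifying histones, and they work in 2 kinds of complex. PRC2 methylates histone H3 through Ezh2 or Ezh1, held together by Suz12 and Eed, and its accessory subunits Jarid2 and Mtf2 help to bring it to CpG islands. PRC1 ubiquitinates histone H2A through Rnf2 (RING1B) or Ring1 (RING1A), and its Cbx subunits, among them Cbx2 and Cbx7, bind the methylated histone. In embryonic stem cells Polycomb complexes hold lineage genes in a repressed but inducible state.

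All 10 territories held at least 1 interval in each list. Over all 21938 protein-coding territories, 75.5% held at least 1 mESC interval and 68.5% at least 1 MEF interval. Pooled over the 10 genes, the density was 92.5 mESC intervals and 75.6 MEF intervals per Mb, against 48.3 mESC and 36.9 MEF intervals per Mb over all protein-coding territories. The median gene had 94.1 mESC and 42.5 MEF intervals per Mb, beside medians of 40.6 mESC and 31.3 MEF intervals per Mb over all protein-coding genes. In both lists 8 of the 10 genes lay above the median protein-coding gene. Jarid2, Suz12, Rnf2, Mtf2 and Ezh2 together held 53 of the 66 mESC intervals and 47 of the 54 MEF intervals, and these 5 genes were singled out after their counts were seen.

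**Figure D1:**
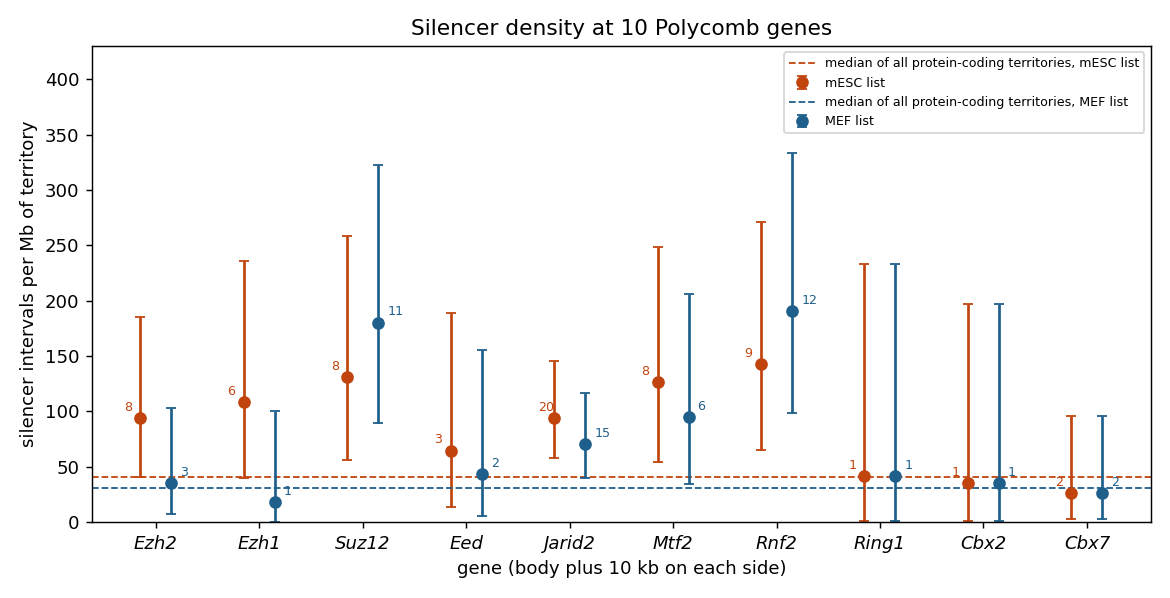
Silencer intervals per Mb of territory (y axis) for each Polycomb gene (x axis), mESC list in orange on the left and MEF list in blue on the right of each pair. Bars are 95% exact Poisson intervals, which cover counting error only, the small digits are interval counts, and dashed lines are medians over all protein-coding territories; Rnf2 and Suz12 sit high in both lists, while Ring1, Cbx2 and Cbx7 have 1 or 2 intervals per list.

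Rnf2, Suz12 and Mtf2 had the highest densities of the 10 genes in both lists, while Ezh1 and Ezh2 ranked lower in MEFs than in mESCs. In mESCs the density ran through Rnf2 at 143, Suz12 at 131, Mtf2 at 126, Ezh1 at 108, Jarid2 at 94.3, Ezh2 at 93.9, Eed at 64.7, Ring1 at 41.9, Cbx2 at 35.3 and Cbx7 at 26.6 intervals per Mb. In MEFs it ran through Rnf2 at 191, Suz12 at 180, Mtf2 at 94.7, Jarid2 at 70.7, Eed at 43.2, Ring1 at 41.9, Cbx2 at 35.3, Ezh2 at 35.2, Cbx7 at 26.6 and Ezh1 at 18.1 intervals per Mb. Neighbours in either order had overlapping Poisson intervals, but the overlap of separate intervals is not a test of a difference. Densities were not tested between genes. The 95% intervals of the highest and lowest genes of each list also overlapped. In mESCs these ran from 65.4 to 271 per Mb at Rnf2 and from 3.22 to 95.9 at Cbx7. In MEFs they ran from 98.5 to 333 per Mb at Rnf2 and from 0.457 to 101 at Ezh1. The MEF interval of Cbx7, from 3.22 to 95.9 per Mb, lay below that of Rnf2.

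More mESC than MEF intervals were found at Jarid2, Ezh1, Ezh2, Eed and Mtf2, and 45.6% of all protein-coding territories had the same direction. Rnf2 and Suz12 had more MEF intervals, and Ring1, Cbx2 and Cbx7 had equal numbers. Some of these directions rested on the flanks. Inside the gene body, Rnf2 had 7 intervals in each list and Mtf2 had 6 in each. Suz12 had 5 mESC and 7 MEF intervals there, and Cbx7 had 1 mESC and 2 MEF intervals. The mESC share of each territory's intervals was compared with the share of 56.2% over all tested territories by a two-sided exact binomial test with Benjamini-Hochberg adjustment over the 3549 protein-coding genes with at least 10 intervals. No gene passed an adjusted 0.05 in either direction (0.0% of genes toward mESCs and 0.0% toward MEFs), and 30 had an unadjusted p under 0.05. None of the 5 Polycomb genes with enough intervals was among those 30. The test treats intervals as independent and compares 2 lists, not replicated cultures. An interval found in both lists counts on each side. With such intervals dropped, 1665 genes had enough intervals, and 68 had an unadjusted binomial p under 0.05. No gene was called there after adjustment either. Each cell type has 1 list and most genes have few intervals, so the absence of a called gene does not show that the 2 cell types are alike.

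The catalytic subunits of PRC2 both had more intervals in the mESC list. Ezh2, the methyltransferase that predominates in dividing cells, had 8 intervals in mESCs and 3 in MEFs (chr6:47530139-47595341, minus strand), a mESC share of 72.7% (95% exact binomial interval 39 to 94.0; unadjusted exact binomial p = 0.367, adjusted p = 1.0). Its mESC intervals fell into a pair 24.3 and 25.7 kb from the annotated gene start, a run of 5 between 52.5 and 61.5 kb and 1 beyond the gene, in an intron of the neighbour Cul1. Among the Polycomb genes, Ezh2 held the mESC interval with the largest fold, 10.5, in an intron 6623 bp from the nearest basic-set Ezh2 transcription start site (TSS). A MEF interval with a fold of 4.61 overlapped that interval by 40 bp, and both lists thus placed a fold above 4 at this intronic site. The intervals are shown on the plus strand of mm10, here and for the other genes, as the sequences behind the values named, with the bases also covered by the other list in capitals.
Ezh2 mESC, chr6:47570912-47571161: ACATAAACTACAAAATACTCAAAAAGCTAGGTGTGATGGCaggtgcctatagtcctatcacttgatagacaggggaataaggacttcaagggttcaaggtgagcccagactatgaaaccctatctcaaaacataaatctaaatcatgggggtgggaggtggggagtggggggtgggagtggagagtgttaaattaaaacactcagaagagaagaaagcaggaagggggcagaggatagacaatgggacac
Ezh2 MEF, chr6:47570852-47570951: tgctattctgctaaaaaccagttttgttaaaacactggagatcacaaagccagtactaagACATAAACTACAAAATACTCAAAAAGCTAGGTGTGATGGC
The mESC sequence was 45.6% GC with no CpG, and 36.8% of it was soft-masked repeat, while the MEF sequence was 36% GC and held no repeat.

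The other MEF intervals of Ezh2 lay 56.6 and 56.8 kb from the start with folds of 2.58 and 2.23. The closer of them lay wholly within a mESC interval of fold 2.34, and all 150 bp of it were soft-masked repeat. One of the mESC intervals of Ezh2 touched protein-coding sequence. It covered 294 bp around exon 16 of 20 of the longest basic coding transcript, included 96 coding bases and had a fold of 2.20.

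Ezh1, the second H3 methyltransferase, which is best known from non-dividing cells, had 6 intervals in mESCs and 1 in MEFs (chr11:101191115-101226463, minus strand). Its mESC density of 108 per Mb (39.8 to 236) exceeded that of 90.7% of protein-coding genes, and its MEF density of 18.1 per Mb (0.457 to 101) exceeded that of 36.6%. With 7 intervals in all, Ezh1 did not reach the minimum for the test, and its mESC share of 85.7% had an exact binomial interval of 42.1 to 99.6%. The mESC intervals had folds between 2.14 and 3.06, the highest in an intron, and the lone MEF interval, also intronic, had a fold of 2.10. None of the 7 overlapped the other list. A mESC interval of fold 2.53 lay in the promoter, its midpoint 396 bp upstream of the nearest Ezh1 TSS, and every base of it was soft-masked repeat.
Ezh1 mESC, chr11:101226784-101226933: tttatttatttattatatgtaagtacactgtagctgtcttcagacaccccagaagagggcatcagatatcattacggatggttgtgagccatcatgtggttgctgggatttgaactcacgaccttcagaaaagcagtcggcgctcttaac

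Suz12, the scaffold on which PRC2 assembles, had 8 intervals in mESCs and 11 in MEFs (chr11:79993106-80034123, plus strand). The mESC density of 131 per Mb (56.6 to 258) exceeded that of 95.1% of protein-coding genes and the MEF density of 180 per Mb (90.0 to 323) that of 99.7%. The mESC share was 42.1% (20.3 to 66.5; unadjusted exact binomial p = 0.251, adjusted p = 1.0). Positions differed between the lists. The 3 mESC intervals between 23.9 and 26 kb from the gene start had no MEF interval among them, and the 4 MEF intervals between 6.53 and 13.2 kb had no mESC interval among them.

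Overlapping pairs at Suz12 lay 9238 bp upstream in mESCs and 9227 bp upstream in MEFs, with folds of 2.71 (mESCs) and 2.11 (MEFs), and 34.6 kb into the gene in mESCs and 34.5 kb in MEFs, with folds of 2.19 (mESCs) and 2.18 (MEFs). The largest folds lay elsewhere, at intervals without an overlap. In mESCs the largest was 4.46, at 200 bp of intergenic sequence 3310 bp upstream of the TSS. In MEFs it was 6.81, at 50 bp of intron that was 88.0% soft-masked repeat and also lies inside the overlapping gene model Gm26563.
Suz12 mESC, chr11:79989696-79989895: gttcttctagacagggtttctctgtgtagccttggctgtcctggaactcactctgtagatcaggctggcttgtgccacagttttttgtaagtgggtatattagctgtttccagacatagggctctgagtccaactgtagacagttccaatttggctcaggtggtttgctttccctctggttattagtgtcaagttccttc
Suz12 MEF, chr11:80025686-80025735: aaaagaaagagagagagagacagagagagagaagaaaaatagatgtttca

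Eed, the subunit that binds the methylated histone and stimulates PRC2, had 3 intervals in mESCs and 2 in MEFs (chr7:89954654-89980983, minus strand). All 5 overlapped the gene body, and the MEF interval in the 3 prime UTR extended past the annotated gene end. None overlapped the other list, and their folds ran from 2.03 to 2.42 in mESCs and from 2.03 to 2.35 in MEFs. The mESC interval of highest fold, 2.42, was intronic, and the MEF interval of highest fold, 2.35, lay in the 3 prime UTR. Coding sequence was touched by 2 of the 3 mESC intervals. The shorter of them, 50 bp with a fold of 2.03, lay entirely within coding exon 5 of 12, and the longer overlapped exon 4 by 30 coding bases.
Eed mESC, chr7:89970378-89970427: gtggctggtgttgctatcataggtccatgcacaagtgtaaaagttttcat

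**Figure D2:**
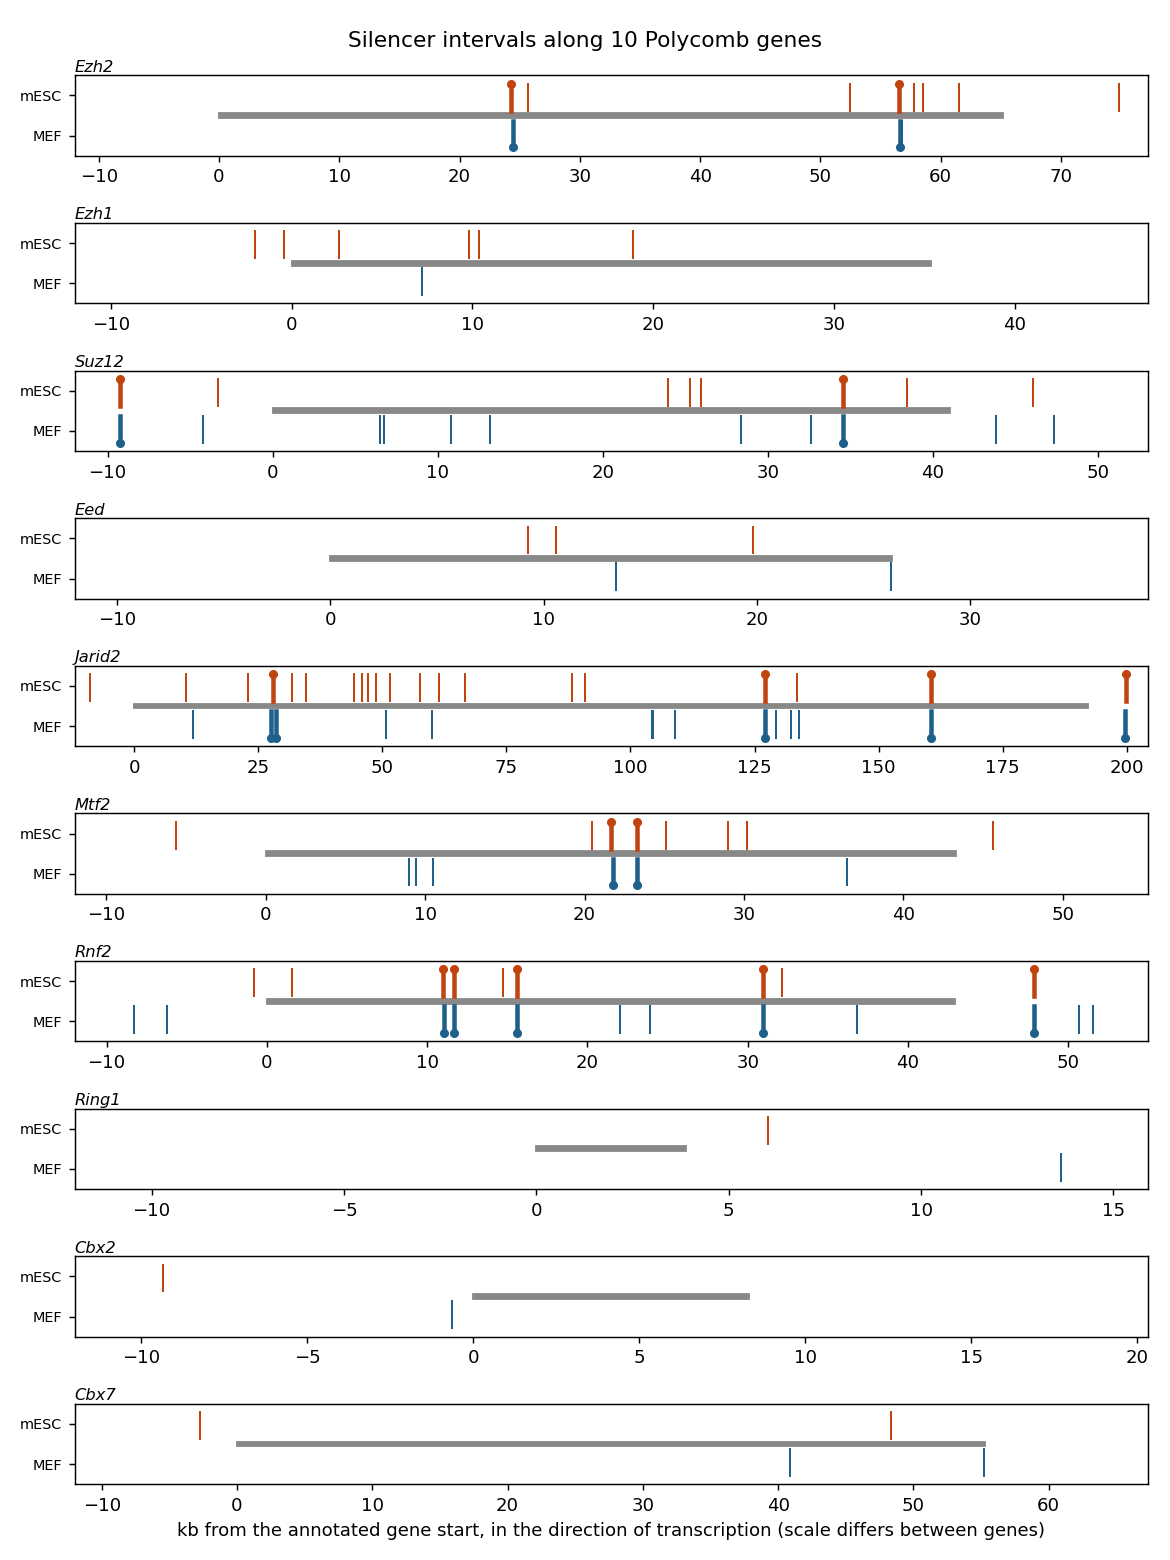
Midpoints of silencer intervals in kb from the annotated gene start, in the direction of transcription, for each Polycomb gene, with mESC intervals above and MEF intervals below the grey gene body. Thick lines with dots mark intervals that overlap the other list; Jarid2 has 15 mESC against 5 MEF intervals in its first 100 kb, and Ezh1, Eed, Ring1, Cbx2 and Cbx7 have no overlapping interval.

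Jarid2, a substoichiometric PRC2 partner that binds DNA and nucleosomes, had 20 intervals in mESCs and 15 in MEFs, over a gene of 192 kb (chr13:44729474-44921643, plus strand). Density was 94.3 per Mb in mESCs (57.6 to 146) and 70.7 per Mb in MEFs (39.6 to 117), above 86.5% of protein-coding genes in mESCs and 84.3% in MEFs. The mESC share of 57.1% (39.3 to 73.7) was close to the share over all territories (unadjusted exact binomial p = 1.0, adjusted p = 1.0). The intervals were spread unequally along the gene. From the gene start to 100 kb there were 15 mESC and 5 MEF intervals, from 100 to 150 kb there were 2 mESC and 8 MEF intervals, and from 150 kb to the end of the territory each list had 2. The upstream flank held 1 mESC interval. These segments were chosen after the positions were seen and carry no test. When intervals below their list's median fold were dropped, Jarid2 had 5 in mESCs and 8 in MEFs, so the direction of its counts turned.

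The median fold at Jarid2 was 2.33 in mESCs and 2.40 in MEFs, against 2.42 in the whole mESC list and 2.36 in the whole MEF list. A fold above 4 was found once in each list, 4.61 in mESCs at 44.4 kb and 4.31 in MEFs at 60.1 kb, each on 50 bp of intron and each without an overlap. The mESC sequence was entirely soft-masked repeat and the MEF sequence held none.
Jarid2 mESC, chr13:44773812-44773861: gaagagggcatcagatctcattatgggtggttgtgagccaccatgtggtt
Jarid2 MEF, chr13:44789563-44789612: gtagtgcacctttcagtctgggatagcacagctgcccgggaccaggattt
Overlaps joined 4 mESC to 5 MEF intervals. A mESC interval of 1378 bp, 28 kb into the gene, covered 2 MEF intervals of 130 bp each, and a pair at 160 kb had folds of 2.71 (mESCs) and 3.08 (MEFs). The pair beyond the end of the gene, with folds of 2.43 in mESCs and 2.02 in MEFs, lay in an intron of the neighbour Dtnbp1. One MEF interval counted as promoter, by a TSS of Gm22213 inside the Jarid2 body and not by one of Jarid2.

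Mtf2, a Polycomb-like protein that recruits PRC2 to unmethylated CpG-rich DNA, had 8 intervals in mESCs and 6 in MEFs (chr5:108065674-108109004, plus strand). Density was 126 per Mb in mESCs (54.5 to 249) and 94.7 per Mb in MEFs (34.8 to 206), above 94.4% of protein-coding genes in mESCs and 93.5% in MEFs. Its mESC share was 57.1% (28.9 to 82.3; unadjusted exact binomial p = 1.0, adjusted p = 1.0). The median fold was 2.98 in mESCs and 2.69 in MEFs. Inside the gene, mESC intervals lay between 20.5 and 30.2 kb from its start.

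In the mESC list, 2 intervals at Mtf2 had folds above 4, 4.88 on 50 bp and 4.17 on 100 bp. Both were intronic and had no overlap in the other list. The 100 bp sequence was all soft-masked repeat, as was 14.0% of the 50 bp sequence.
Mtf2 mESC, chr5:108086102-108086151: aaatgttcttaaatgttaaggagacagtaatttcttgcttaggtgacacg
Mtf2 mESC, chr5:108094652-108094751: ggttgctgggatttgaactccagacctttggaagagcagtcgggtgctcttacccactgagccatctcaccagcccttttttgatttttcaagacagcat
Overlap between the lists occurred at 21.6 kb, with folds of 3.36 in mESCs and 3.27 in MEFs, and at 23.3 kb, with folds of 2.07 in mESCs and 3.03 in MEFs. The mESC interval at 21.6 kb spanned 400 bp around exon 5 of 15 and included 101 coding bases, and the 100 bp that it shared with the MEF interval were soft-masked repeat.

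Among the PRC1 genes, Rnf2, the main H2A ubiquitin ligase of stem cells, had 9 intervals in mESCs and 12 in MEFs (chr1:151458004-151500955, minus strand). Its density of 143 per Mb in mESCs (65.4 to 271) and 191 per Mb in MEFs (98.5 to 333) exceeded 96.7% of protein-coding genes in mESCs and 99.8% in MEFs. The mESC share was 42.9% (21.8 to 66.0; unadjusted exact binomial p = 0.272, adjusted p = 1.0). Intervals that overlapped the other list numbered 5 of 9 in mESCs, the most of the 10 genes, and 5 of 12 in MEFs, as many as at Jarid2.

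At the overlapping pairs of Rnf2 the mESC folds were 4.92, 3.75, 2.34, 2.07 and 2.03, and the MEF folds of the same pairs, in the same order, were 3.61, 3.71, 2.51, 2.00 and 3.00. The pair with the 4.92 lay in the downstream flank, around exon 11 of 15 of the neighbour Trmt1l, of which each interval included 79 coding bases. The MEF interval of 3.71 was the highest MEF fold of the territory. It and its mESC partner lay in a Rnf2 intron 11.0 kb from the gene start, overlapped by 235 bp and were nearly free of repeat (0.0% in mESCs and 4.00% in MEFs).
Rnf2 mESC, chr1:151489823-151490109: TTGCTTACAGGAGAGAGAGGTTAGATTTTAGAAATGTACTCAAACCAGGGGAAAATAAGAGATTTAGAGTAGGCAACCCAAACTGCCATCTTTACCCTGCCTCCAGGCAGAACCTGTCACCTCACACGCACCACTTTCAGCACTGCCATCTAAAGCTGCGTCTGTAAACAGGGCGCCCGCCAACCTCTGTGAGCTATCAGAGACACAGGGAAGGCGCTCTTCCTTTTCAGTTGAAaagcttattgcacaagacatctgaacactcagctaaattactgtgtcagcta
Rnf2 MEF, chr1:151489808-151490057: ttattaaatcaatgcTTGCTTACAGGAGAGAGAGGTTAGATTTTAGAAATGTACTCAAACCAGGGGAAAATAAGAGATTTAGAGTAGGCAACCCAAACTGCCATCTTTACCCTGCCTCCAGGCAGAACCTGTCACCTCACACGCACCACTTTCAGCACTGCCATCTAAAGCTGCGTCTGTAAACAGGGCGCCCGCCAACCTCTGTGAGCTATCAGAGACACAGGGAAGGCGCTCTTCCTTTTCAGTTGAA
In the gene itself, a MEF interval of 350 bp with a fold of 2.57 included 161 coding bases of exon 3 of 7.

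Ring1, the paralogous ligase, is a gene of 3.89 kb with 1 interval in each list (chr17:34020792-34024680, minus strand), at 41.9 per Mb in both. Its territory in the major histocompatibility region also overlapped H2-Ke6, Slc39a7 and Rxrb. Neither interval lay inside Ring1. The mESC interval, 6.02 kb from the gene start and beyond its end, had a fold of 5.42 on 50 bp of soft-masked repeat, and the MEF interval, at 13.6 kb, had a fold of 2.16 on 300 bp.
Ring1 mESC, chr17:34018632-34018681: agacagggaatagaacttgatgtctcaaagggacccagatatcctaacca

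Cbx2 and Cbx7, chromodomain subunits of canonical PRC1, also had few intervals. Cbx2 (chr11:119022962-119031270, plus strand) had 1 in each list, both upstream of the gene. The mESC interval lay 9335 bp upstream with a fold of 7.68 on 50 bp, and the MEF interval lay 635 bp upstream of the TSS with a fold of 2.08 on 50 bp. The sequences contrast in composition, at 26% GC with no CpG in mESCs and 46% GC with 3 CpGs in MEFs.
Cbx2 mESC, chr11:119013602-119013651: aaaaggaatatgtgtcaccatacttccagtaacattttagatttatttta
Cbx2 MEF, chr11:119022302-119022351: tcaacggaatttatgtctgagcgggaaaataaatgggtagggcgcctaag
Cbx7, the Cbx protein best known from undifferentiated stem cells (chr15:79915807-79971119, minus strand), had 2 intervals in each list, 26.6 per Mb (3.22 to 95.9) in both. The mESC folds were 2.86, in an intron, and 2.15, upstream, and the MEF folds were 2.28, in the 3 prime UTR, and 2.03, in an intron. None of the intervals of Ring1, Cbx2 or Cbx7 overlapped the other list.

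Intervals at a TSS of the gene itself were few. Of the 10 genes, 2, among them Ezh1, had a mESC interval with its midpoint within 1 kb of an own TSS, where 6.76% of 21911 protein-coding genes did, and Cbx2 had a MEF interval there, where 5.09% of genes did. Gene bodies were overlapped, by at least 1 bp, by 51 of the 66 mESC intervals (99.3 per Mb) and 42 of the 54 MEF intervals (81.7 per Mb). The upstream flanks held 9 mESC and 5 MEF intervals, and the downstream flanks held 6 mESC and 7 MEF intervals, in 100 kb of sequence on each side. By midpoint, 46 mESC and 38 MEF intervals lay inside the Polycomb gene alone, 8 of each list lay inside another gene model, alone or with the Polycomb gene, and 12 mESC and 8 MEF intervals lay in none.

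Introns held 47 of the mESC intervals (71.2%) and 39 of the MEF intervals (72.2%), close to the 72.8% of mESC and 72.9% of MEF intervals in all protein-coding territories. Promoters, taken as 1 kb either side of any TSS, held 3 mESC intervals (4.55%) and 3 MEF intervals (5.56%), against 4.58% of mESC and 4.43% of MEF intervals in all protein-coding territories. Midpoints in coding exons numbered 4 in mESCs, at Ezh2, Eed, Rnf2 (the Trmt1l exon) and Mtf2, and 1 in MEFs, in the same Trmt1l exon. These were 6.06% of mESC and 1.85% of MEF intervals, where all protein-coding territories had 0.981% in mESCs and 1.00% in MEFs; with counts this small the share rests on single intervals.

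Folds at the Polycomb genes had medians near those of the lists. The median was 2.33 in mESCs and 2.34 in MEFs, against 2.40 in mESCs and 2.35 in MEFs for intervals in all protein-coding territories. A fold above 4 was found at 8 of 66 mESC intervals (12.1%) and 4 of 54 MEF intervals (7.41%), against 7.32% of mESC and 5.36% of MEF intervals in all protein-coding territories. The mESC intervals lay at Ezh2, Suz12, Jarid2, Rnf2, Ring1, Cbx2 and, with 2, Mtf2, and 3 of the 4 MEF intervals lay at Ezh2, Suz12 and Jarid2. Several were of 50 bp, the shortest length listed, which made up 10 of the mESC and 10 of the MEF intervals. The fold is the authors' value, from lists that hold no fold below 2.00, and it was not compared between lists.

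**Figure D3:**
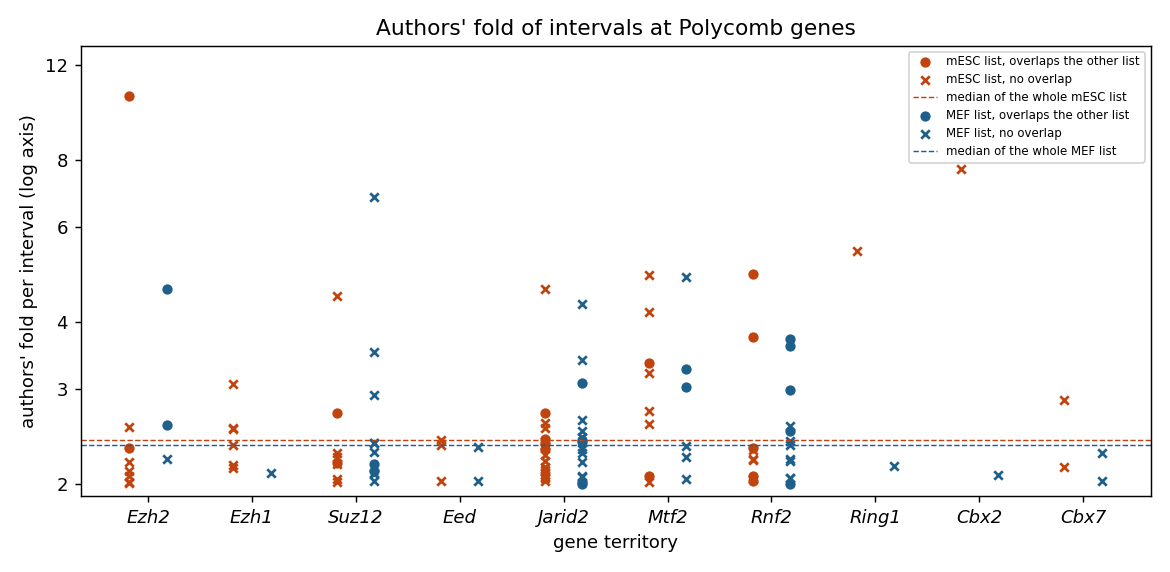
The authors' fold of each silencer interval (log y axis) by gene territory (x axis), mESC list in orange left of the MEF list in blue, with dots for intervals that overlap the other list and crosses for those that do not. Dashed lines are the medians of the whole lists. Most points lie between 2 and 3, and the Ezh2 interval at 10.5 is the highest of the mESC points.

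Overlaps between the lists involved 15 of the 66 mESC intervals (22.7%, exact binomial interval 13.3 to 34.7) and 16 of the 54 MEF intervals (29.6%, 18.0 to 43.6). All lay at Jarid2, Rnf2, Ezh2, Suz12 and Mtf2. Over all protein-coding territories, 36.4% of mESC and 47.4% of MEF intervals overlapped the other list. The same 20 input libraries are labelled for both lists, so an overlap is not a repeat of the measurement in independent material, and these shares are given as descriptions of the lists. Close neighbours without overlap added 8 mESC and 7 MEF intervals that lay within 1 kb of the other list.

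Base composition and repeats of the intervals resembled the lists. Mean GC was 40.6% in mESCs and 40.4% in MEFs, against 40.3% in the whole mESC list and 40.1% in the whole MEF list. Soft-masked repeat made up a mean of 42.5% of each mESC and 41.6% of each MEF interval, against 40.9% in the whole mESC list and 38.5% in the whole MEF list. No CpG was present in 22 mESC and 19 MEF intervals (33.3% of mESC and 35.2% of MEF intervals), against 35.1% of the whole mESC and 35.3% of the whole MEF list.

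The territories themselves differed in composition. Ring1, Cbx2 and Cbx7 had territories of 52.7%, 52.2% and 49.7% GC, above the protein-coding median of 44.5%, and Ezh1 had 46.9%. The other 6 ranged from 39.5% at Mtf2 to 42.4% at Jarid2. Few intervals did not always mean a low density, since the territories of Ring1 and Cbx2 were the shortest of the 10. Ring1 in both lists and Cbx2 in MEFs were denser than the median protein-coding gene. Cbx2 in mESCs and Cbx7 in both lists were less dense than that gene. Across the 10 genes, Spearman's rho of territory GC with density was -0.66 for mESCs and -0.52 for MEFs, and over all 21938 protein-coding territories it was -0.20 in both. The values of all genes come from the same 2 lists, and what GC content contributes to the counts was not tested.

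**Figure D4:**
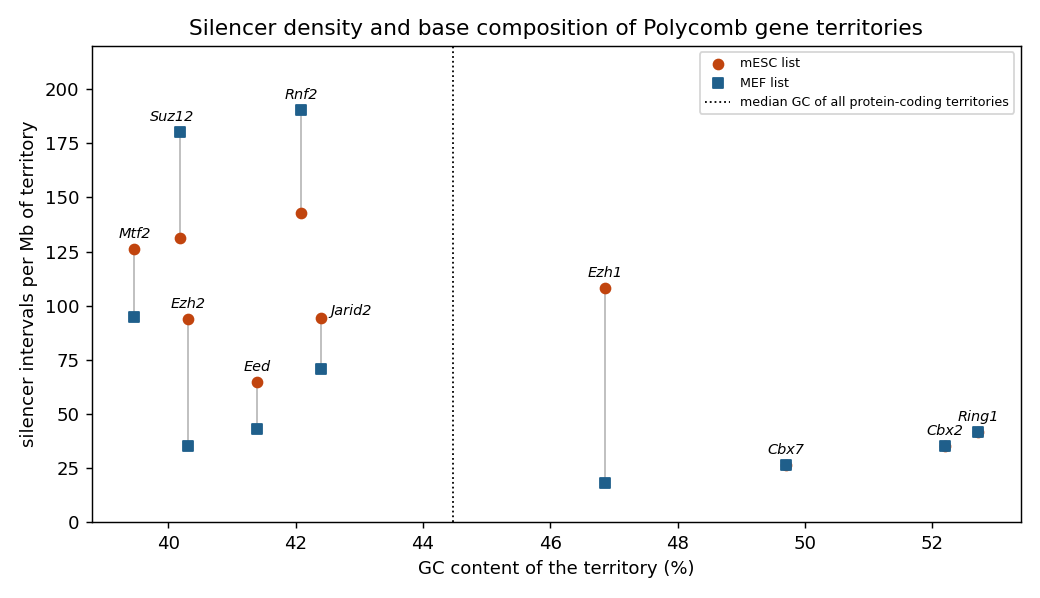
GC content of each territory (x axis, %) against silencer intervals per Mb (y axis), with orange circles for the mESC list and blue squares for the MEF list joined by a line for each gene. The dotted line is the median GC of all protein-coding territories; at Ring1, Cbx2 and Cbx7, to the right, the 2 densities are equal and the square covers the circle.

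Short motifs were searched on both strands of the whole intervals, and a match is a description of the letters. The AP-1 motif TGANTCA was found in 4 mESC intervals, 3 of them at Mtf2 and 1 at Suz12, and in 3 MEF intervals, 2 at Jarid2 and 1 at Suz12 (6.06% in mESCs and 5.56% in MEFs, against 6.14% of the whole mESC and 6.74% of the whole MEF list). The motif GCCATNTT, bound by YY1, a factor whose fly relative Pho recruits Polycomb complexes, was found in 3 mESC and 3 MEF intervals (4.55% in mESCs and 5.56% in MEFs, against 5.59% of the whole mESC and 5.38% of the whole MEF list). One such match lay in each member of the overlapping Rnf2 pair printed above. The SP/KLF motif GGGCGG was found in 2 mESC intervals and 1 MEF interval (3.03% in mESCs and 1.85% in MEFs, against 2.24% of the whole mESC and 1.89% of the whole MEF list). The E-box CACGTG was found in 1 interval of each list (1.52% in mESCs and 1.85% in MEFs, against 1.9% of the whole mESC and 2.19% of the whole MEF list). The TEAD motif CATTCC was found in 8 mESC intervals and 2 MEF intervals (12.1% in mESCs and 3.70% in MEFs), against 12.2% of the whole mESC and 11.8% of the whole MEF list. Longer intervals offer more room for a match, and the shares were not adjusted for length.

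Other genes of the Polycomb system were less dense. The list of 33 further genes of this system includes Kdm6a and Kdm6b, demethylases that oppose Polycomb proteins. It held 160 mESC and 113 MEF intervals, 48 per Mb in mESCs and 33.9 per Mb in MEFs. Of the 33 genes, 17 had more mESC than MEF intervals, 4 had fewer and 12 had equal numbers. None of the 7 with enough intervals passed the binomial test. By density over both lists the leading genes were Asxl2 (14 mESC and 11 MEF intervals), a partner of the H2A deubiquitinase Bap1, Phc1 (4 mESC, 3 MEF), a Polyhomeotic subunit of PRC1, and Scmh1 (12 mESC, 11 MEF), a further PRC1 partner. No interval of either list lay at Pcgf1, Pcgf2, Cbx8, Phf1, Kdm6b or Bcorl1, of which Bcorl1 is X-linked.

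Trithorax group genes, which counteract Polycomb silencing, had 124 mESC and 100 MEF intervals over 19 genes, 70.5 per Mb in mESCs and 56.9 per Mb in MEFs. Smarcc1 (22 mESC, 19 MEF), Ash1l (20 mESC, 12 MEF) and Ash2l (5 mESC, 6 MEF) led by density, and Men1 had none. Among 14 genes of HP1 proteins and H3K9 methylation the densities were 89.2 per Mb in mESCs and 58.7 per Mb in MEFs, led by Cbx5 (13 mESC, 11 MEF), Mphosph8 (9 mESC, 5 MEF) and Cbx1 (6 mESC, 5 MEF), with none at Ehmt2. The 20 corepressor and histone deacetylase genes had 52.9 per Mb in mESCs and 39.5 per Mb in MEFs, led by Ncor1 (18 mESC, 16 MEF), Chd4 (9 mESC, 1 MEF) and Hdac2 (4 mESC, 4 MEF), with none at Hdac7. In mESCs the HP1 and H3K9 methylation genes thus lay near the 92.5 per Mb of the 10 Polycomb genes, and the difference between lists of genes was not tested.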

How the data were processed

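Reporter RNA of mESCs and MEFs and input plasmid DNA were sequenced by the authors, who deposited 1 list of silencer intervals per cell type. Per the file headers, an interval carries its position and a fold, the authors' linear ratio. Bowtie2 and SAMtools, without versions, and the build hg38 are named per the submitters' processing notes, whereas the series' design text gives mm10. Every interval fitted within its mm10 chromosome, and mm10 was used. How intervals were called, what the ratio divides, how depth was scaled and how replicates were combined is not given in the sources used here. Starts were read as BED starts and printed counting from 1, with an uncertainty of 1 bp, since 40.8% of mESC and 40.7% of MEF starts lay 1 base past a multiple of 50.

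Intervals were assigned by overlap of at least 1 bp to gene bodies of GENCODE M21 plus 10 kb, and annotated at the midpoint with its basic set with promoters taking precedence, then UTRs and exons, then introns. Sequence and soft-masked repeats came from RefSeq's GRCm38.p6. Binomial and Poisson intervals are exact, at 95%, and cover counting error only, and close intervals are not independent. The two-sided exact binomial test with Benjamini-Hochberg adjustment at 0.05 was tested on simulated data (Python 3.11.15, SciPy 1.17.1, statsmodels 0.14.6, pandas 2.3.3). Libraries were grouped by their titles, and no value per library was analysed here. The Polycomb genes and the other gene lists were chosen with earlier results of these data known. Named intervals were, for each gene, the one of highest fold in each list, those within 1 kb of an own TSS and those with a fold above 4; overlapping and coding intervals named besides were chosen after their values were seen. Of the intervals this rule names, 2 are not reported here. Of the other lists, the 3 genes with the most intervals per Mb and all genes with none were named. Alternatives varied the flank, the minimum for the test, the overlap rule, fold, length and repeat filters, the promoter width and the motif window. Dropping Jarid2, Rnf2 or Suz12 and the filter on length were added after seeing the data.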

Additional observations from a re-analysis of the deposited data

How the results depend on the processing

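No gene passed the adjusted binomial test under any of the 6 alternatives (0.0 in each), whether territories lost their flanks or took 25 kb, the minimum was 5 or 20 intervals, or overlapping or low-fold intervals were dropped. The mESC share minus the share over all tested genes, in percentage points, changed sign at Jarid2 with flanks of 25 kb (-2.70) and with intervals at or above the median fold of their list (-17.5), and at Mtf2 without overlapping intervals (-0.341), without flanks (-5.96) and with flanks of 25 kb (-0.805), against 0.985 for either gene as reported. Each had an adjusted p of 1.0. Polycomb territories were 1.92 times as dense as all protein-coding territories in mESCs and 2.05 times in MEFs. The ratio was 1.39 in mESCs when intervals below the median fold were dropped and 2.76 in MEFs for intervals without an overlap, and without Rnf2 it was 1.81 in mESCs and 1.75 in MEFs. With promoters of 5 kb either side, 21.2% of mESC and 24.1% of MEF intervals were promoter intervals, and at or above the median fold no MEF interval was (0.0%). No MEF interval under 50% repeat held the SP/KLF motif (0.0%). The cause of these differences was not tested. All other results kept their direction or lay within their counting interval. No paired analysis was possible because each cell type has 1 list and no values per library. With no counts in the lists, depth limits the intervals in a way that could not be measured.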

Other observations

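The deposited folds took few distinct values. The 115165 mESC intervals shared 3594 values and the 89596 MEF intervals shared 3077, and 94.4% of mESC and 94.0% of MEF intervals carried a value that occurred at least 10 times in their list. The most frequent mESC value, 2.7099, stood at 4086 intervals, among them the Suz12 interval 9238 bp upstream and the Jarid2 interval at 160 kb. The most frequent MEF value was 2.7226, at 3051 intervals. In each list the next 2 values by frequency were 0.75 and 0.8 of the most frequent one. At the Polycomb genes, 61 of 66 mESC and 52 of 54 MEF intervals had such a recurring fold. The mESC fold of 10.5 at Ezh2 occurred at 8 intervals of the list, and the 7.68 at Cbx2 occurred at 61.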
